A study of Mus musculus with 12 samples.

Results

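Interferon-stimulated genes (ISGs) are the effectors that cells switch on in answer to type I interferon (IFN). A list of 51 of them was followed in mouse splenic B cells with and without the transcription factor RUNX1. The members were taken by gene symbol as known type I IFN effectors, with no threshold on their values, although earlier results of these data were known when the list was made. All 51 were matched to 1 Ensembl identifier each among the 37991 genes of the count table, and all 51 were among the 13538 genes that passed the filter on low counts and were tested. They lay on 15 chromosomes. Gene positions below are in build mm9 (NCBIM37), to which the reads were aligned, and the promoter windows are in another build, which is named beside them.

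The cells were resting B cells from spleens of mice aged 8 weeks. Both genotypes carried the CD23-iCre transgene, which the CD23 regulatory region drives from the transitional B cell stage on. Control mice carried this transgene alone (Cre-only). Runx1 c-k/o mice (CD23iCre/Runx1 ck/o) also had Runx1 alleles with loxP sites around exon 4, so that the gene was inactivated in mature B cells while other cells of the animal kept it. Poly(A) RNA was sequenced before activation (0 h, rest) and after incubation for 3 h with anti-IgM, which crosslinks the B cell receptor, and IL-4. There were 3 samples in each of the 4 groups and 12 in all. The study describes the samples of a group as biological replicates, and the labels name no litter, batch or pool. The negative selection used to purify the cells leaves B cells as a mixed population of the spleen. In such bulk samples fewer cells of a type and less RNA per cell cannot be told apart.

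Type I IFN binds a receptor made of IFNAR1 and IFNAR2, whose kinases TYK2 and JAK1 activate the factor ISGF3. This complex, which holds STAT2 and IRF9, binds a short element in the promoters of ISGs, the IFN-stimulated response element (ISRE). The proteins made from these genes detect foreign nucleic acids, degrade or edit RNA, block viral entry and release, modify other proteins, or, like USP18, shut the receptor down again. Lymphocytes keep a low level of many of these genes without infection, which is set by small amounts of IFN in the tissue.

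The promoters of 6 members are shown because they hold letters that match the core of the ISRE and because their transcripts behaved differently in these cells. They were thus picked with their values known, and binding of ISGF3 to them was not tested. Each line gives the 200 bases before the transcription start in RefSeq (build GRCm38.p6), 5′ to 3′ on the strand of the gene, with each match to the ISRE core in capitals. The core was written as GAAA, any 2 bases and GAAA again or, on the other strand, TTTC, any 2 bases and TTTC again, and overlapping matches were each marked.
Isg15: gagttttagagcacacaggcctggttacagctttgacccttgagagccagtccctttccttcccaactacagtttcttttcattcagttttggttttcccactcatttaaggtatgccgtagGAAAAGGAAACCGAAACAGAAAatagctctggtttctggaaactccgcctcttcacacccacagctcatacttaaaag
Oas1a: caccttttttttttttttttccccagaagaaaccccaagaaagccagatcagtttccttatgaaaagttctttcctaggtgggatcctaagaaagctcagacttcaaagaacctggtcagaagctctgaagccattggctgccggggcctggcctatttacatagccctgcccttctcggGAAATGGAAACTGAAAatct
Oas3: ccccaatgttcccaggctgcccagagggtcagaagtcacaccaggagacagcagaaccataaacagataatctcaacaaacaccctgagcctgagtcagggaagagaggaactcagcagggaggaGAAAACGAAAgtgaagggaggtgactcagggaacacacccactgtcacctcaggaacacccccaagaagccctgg
Ifit3: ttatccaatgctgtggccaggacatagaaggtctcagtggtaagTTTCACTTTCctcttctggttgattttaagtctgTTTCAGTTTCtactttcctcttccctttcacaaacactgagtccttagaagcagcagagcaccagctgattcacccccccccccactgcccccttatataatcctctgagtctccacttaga
Irgm1: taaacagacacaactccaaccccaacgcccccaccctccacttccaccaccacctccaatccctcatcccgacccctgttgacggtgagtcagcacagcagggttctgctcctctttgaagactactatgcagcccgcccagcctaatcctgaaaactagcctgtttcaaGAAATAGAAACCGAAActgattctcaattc
Gbp3: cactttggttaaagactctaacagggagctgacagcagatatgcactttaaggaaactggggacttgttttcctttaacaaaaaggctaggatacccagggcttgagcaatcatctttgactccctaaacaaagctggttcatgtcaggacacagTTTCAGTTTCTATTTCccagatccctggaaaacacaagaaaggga
The Isg15 window lies at chr4:156200819-156201018 on the minus strand, that of Oas1a at chr5:120907526-120907725 on the minus strand, and that of Oas3 at chr5:120777660-120777859 on the minus strand. The Ifit3 window lies at chr19:34583329-34583528 on the plus strand, that of Irgm1 at chr11:48871421-48871620 on the minus strand, and that of Gbp3 at chr3:142559844-142560043 on the plus strand. Isg15 held 3 cores that overlap one another and begin 78, 72 and 66 bases before the start. Oas1a held a pair at 20 and 14 bases, Irgm1 a pair at 30 and 24 bases and Gbp3 a pair at 45 and 39 bases. Ifit3 held cores that do not overlap at 156 and 122 bases, and Oas3 a single core at 75 bases. As described below, loss of Runx1 went with higher transcript levels of the first 5 genes at 3 h, while Gbp3 did not pass the test.

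RefSeq promoters from 250 bases before to 50 bases after the start were held for 40 of the 51 members. The others were Dhx58, Mx1, Mx2, Nlrc5, Oas2, Parp14, Parp9, Rtp4, Tor3a, Usp18 and Zbp1. The ISRE core was found in 19 of the 40 members (47.5%) and in 3.99% of 27025 genes with a promoter in the same table. Besides the 6 genes above with the core it was present in Bst2, Ddx58, Eif2ak2, Gbp2, Ifi203, Ifih1, Ifit1, Ifitm3, Igtp, Rsad2, Slfn5, Tdrd7 and Trim21. The IFN-γ activated site, searched as TTCNNNGAA, which reads the same on both strands, was found in 10 of the 40 members (25%) and in 9.55% of all genes. The letters TGTGGT or, on the other strand, ACCACA, which RUNX proteins bind, were found in 7 members (17.5%) and in 18.9% of all genes. The motifs were searched separately, so the same bases could count for more than 1 of them, and a match is a description of the letters and not a binding site. All but Adar, Cmpk2, Gbp2, Isg20, Oasl2, Samhd1 and Znfx1 lacked the RUNX letters in this window.

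Totals ran from 14442251 to 23641552 counts per sample, so that 3 counts stood for 0.127 to 0.208 CPM, and these limits cover counting error only. Levels below are normalized CPM, that is, counts scaled to a common library size by the TMM method. Correlation of log2 CPM with the other samples of the group was lowest for replicate 2 of resting Runx1 c-k/o cells (0.9826) and replicate 1 of 3-h Runx1 c-k/o cells (0.9796), against 0.984 to 0.9932 elsewhere. The numbers of members called by edgeR were found again without both. Counts of samples that do not overlap, of means and of pathway genes are given for all 12 samples only. Runx1 was not lower in Runx1 c-k/o cells. It lay between 81.8 and 86.7 CPM in Cre-only and between 95.7 and 103 CPM in Runx1 c-k/o cells at rest, and between 34.9 and 38.5 and between 47.3 and 74.5 CPM at 3 h, but the counts cover the whole gene and do not separate exon 4, so they check nothing. The 8 B cell markers summed to between 12300 and 22500 CPM in every sample. The 6 T cell markers summed to between 5.73 and 13.2 CPM and the 4 NK cell markers to between 0.509 and 3.80 CPM. At 3 h most of the T cell sum was Cd5, at 5.41 to 9.23 CPM in Cre-only and 8.39 to 10.8 CPM in Runx1 c-k/o cells. The 4 markers of plasmacytoid dendritic cells, the main makers of type I IFN, summed to between 3.85 and 8.14 CPM at rest, and at 3 h to between 13 and 21.5 CPM in Cre-only and between 9.48 and 9.64 CPM in Runx1 c-k/o cells, most of it Ccr9. The 4 conventional dendritic cell markers summed to between 28.7 and 38.2 CPM, but single markers of this list changed. In Cre-only cells Zbtb46 was at 1.01 to 1.92 CPM at rest and 15.4 to 19.7 CPM at 3 h. Flt3 was at 16.1 to 17.3 CPM and 5.41 to 7.38 CPM, and both moved in the same directions in Runx1 c-k/o cells. The 7 myeloid markers summed to between 247 and 300 CPM in resting Cre-only and between 213 and 417 CPM in resting Runx1 c-k/o cells, and at 3 h to between 17.6 and 25.4 CPM and between 19.2 and 46.5 CPM. The 4 plasma cell markers ranged from 59.1 to 285 CPM. The 4 erythroid markers summed to between 36.1 and 253 CPM in Cre-only and between 245 and 409 CPM in Runx1 c-k/o cells at rest, and to between 12.3 and 136 and between 115 and 203 CPM at 3 h. The part of these cells in the results was not tested.

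Taken by its median, the list stood above the other genes in resting B cells of both genotypes and was lower after activation, with Runx1 c-k/o samples above Cre-only samples at both times. The median member was 9.30 CPM per kilobase of exon in resting Cre-only cells and 3.94 in 3-h Cre-only cells, while the median of all tested genes was 6.15 and 6.34. Without Runx1 the median member was at 11.2 CPM per kilobase at rest and 9.74 at 3 h, with 6.37 and 6.18 for all tested genes. Relative to the mean of resting Cre-only cells, the median member stood at log2 values of -1.44, -1.67 and -1.12 in the 3 samples of 3-h Cre-only cells. The 3 samples of resting Runx1 c-k/o cells gave 0.298, 0.236 and 0.213, and those of 3-h Runx1 c-k/o cells gave -0.635, -0.118 and -0.0442. The genotypes did not overlap in this median at rest, where the Cre-only samples were at 0.0129, -0.0277 and 0.0145, or at 3 h. Among the 3-h samples, 43 members were lowest in replicate 2 of the Cre-only cells and 36 members were lowest in replicate 1 of the Runx1 c-k/o cells. Over all tested genes these samples were lowest in 33.5% and 42.1%.

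**Figure D1:**
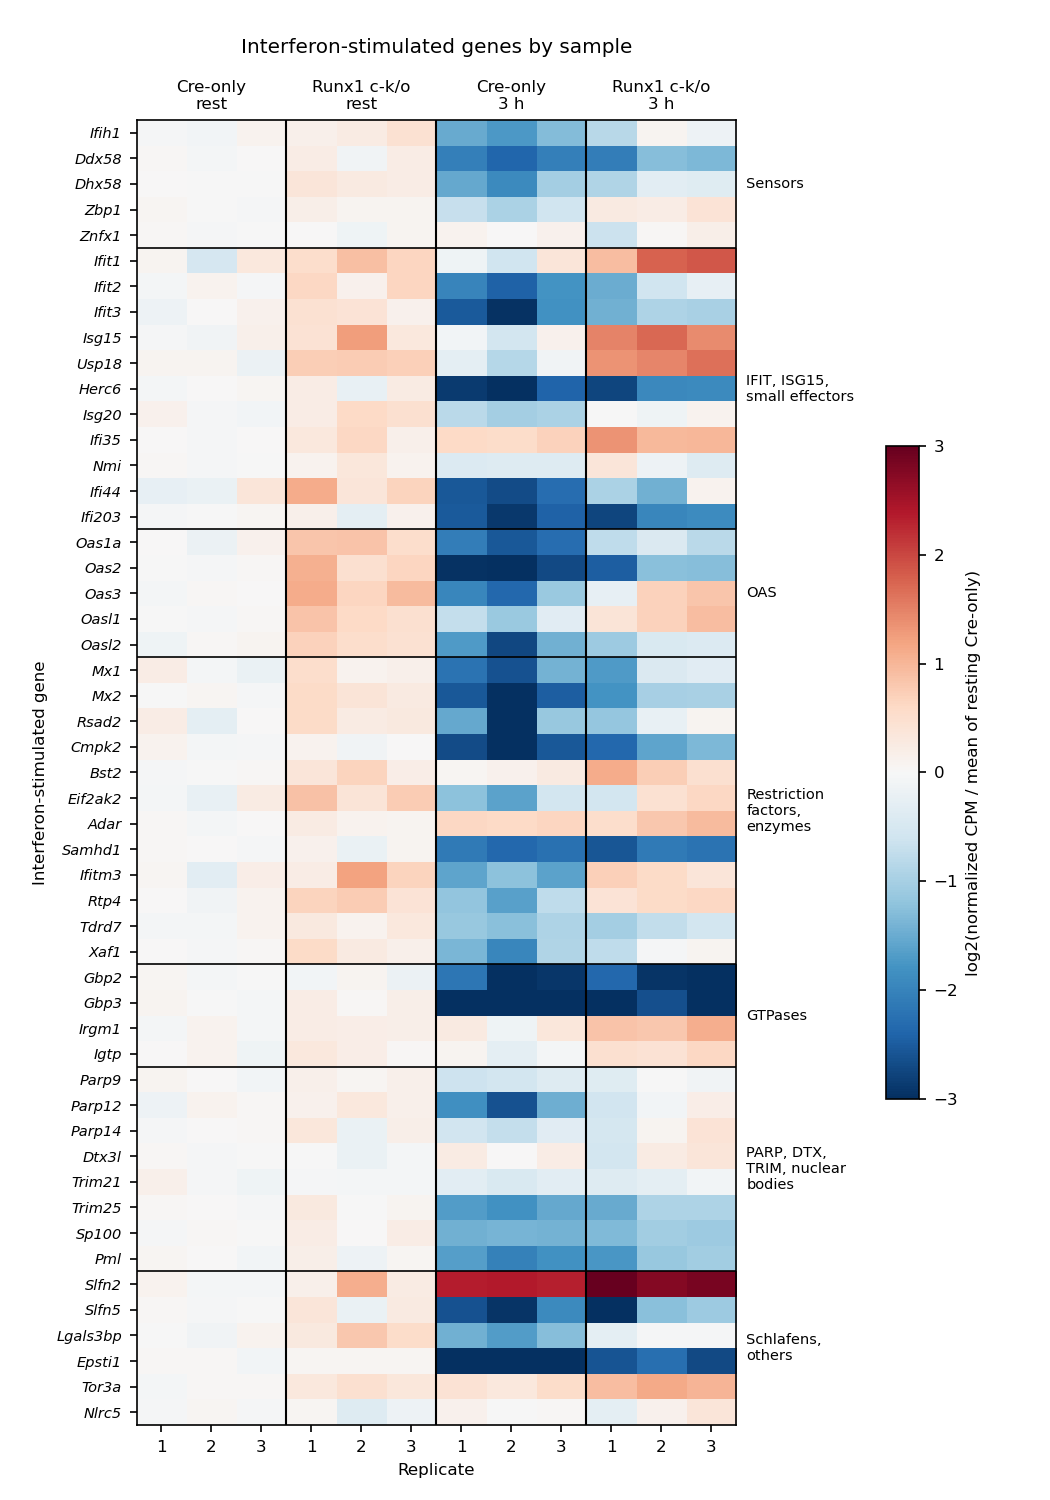
Heat map of the 51 ISGs (rows, by role) in the 12 samples (columns, by group and replicate), as log2 of normalized CPM over the mean of resting Cre-only cells, with colors ending at -3 and 3. The 3-h Cre-only columns are mostly blue, the 3-h Runx1 c-k/o columns are paler, and Slfn2 is the member that rises most in both genotypes.

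Per kilobase of exon, the members with the highest levels in resting Cre-only cells were the nuclear body proteins Sp100 (71.5 CPM per kilobase) and Pml (70.0), the dNTP hydrolase Samhd1 (68.7), the HIN-200 family gene Ifi203 (66.9), whose exons overlap those of Mndal on the same strand, and the ubiquitin ligase Trim25 (49.8). The lowest were Ifit1 (0.999), Parp12 (0.699) and Ifi44 (0.205). At 3 h the order in Cre-only cells was led by Slfn2 (186.5 CPM per kilobase), Adar (45.1), Bst2 (37.2) and Ifi35 (33.5), while Ifi44 (0.0363) stayed last. Among the genes best known as IFN responsive, Isg15 (6.76 CPM per kilobase), Usp18 (4.17), Rsad2 (3.27), Mx1 (7.61), Oas1a (6.48), Oas2 (8.18), Oas3 (2.49) and Oasl2 (3.67) lay below the median member at rest, while Oasl1 (12.7) lay above it.

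Compared at rest, 2 of 51 members had higher levels in the Runx1 c-k/o samples at an adjusted p under 0.05, the 2'-5' oligoadenylate synthetase Oas1a and the deubiquitinase Usp18, and 0 were lower. Of all tested genes 0.731% were higher and 0.761% were lower (1.49% in either direction). The median log2 fold change of the members was 0.27 against 0.03 for all tested genes, and it was above 0 in 46 members and in 55.6% of all tested genes. At an unadjusted p under 0.05 there were 19 members higher and 0 lower in edgeR, against 817 and 679 of 13538 tested genes. DESeq2 called 7 members higher and 0 lower, against 181 and 197 of 13529 genes. In 31 members all 3 Runx1 c-k/o samples lay above all 3 Cre-only samples, and in 0 members below. This order was found in 12% and its reverse in 11.6% of all tested genes. The count of 2 fell to 0 without replicate 1, 2 or 3 of resting Cre-only cells or without replicate 2 of resting Runx1 c-k/o cells. Without replicate 1 of resting Runx1 c-k/o cells 1 member was called, Lgals3bp, and neither Oas1a nor Usp18 was. Without replicate 3 of these cells 1 member was called, Oas1a. With both samples of low correlation left out the count was 9, when 287 of 13751 genes were called higher.

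At 3 h the difference was larger. Of the 51 members, 26 were higher in the Runx1 c-k/o samples and 0 were lower, where 1.47% of all tested genes were higher and 1.3% were lower (2.77% in either direction). The median log2 fold change was 0.86 against 0.01 for all tested genes, and it was above 0 in 47 members and in 51% of all tested genes. At an unadjusted p under 0.05, 43 members were higher and 0 lower in edgeR, against 999 and 1195 of 13538 tested genes. DESeq2 called 37 members higher and 0 lower, against 422 and 287 of 13529 genes. All 3 Runx1 c-k/o samples lay above all 3 Cre-only samples in 33 members and below in 0, an order found in 9.5% of all tested genes and reversed in 12.3%. Both genes called at rest were among the 26. The members called were 3 of 5 sensors, 6 of 11 genes of the IFIT and ISG15 group, 5 of 5 OAS genes, 6 of 12 restriction factors and enzymes, 2 of 4 GTPases, 1 of 8 genes of PARP, TRIM and nuclear body proteins, and 3 of 6 others. The count was 16 without replicate 1 of 3-h Cre-only cells and 15 without replicate 2, when 100 of 13822 and 107 of 13865 genes were called higher. It was 11 when the fit held the 3-h groups alone, where 102 of 12228 genes were called higher. It was 42 without both samples of low correlation, where 565 of 13751 genes were.

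**Figure D2:**
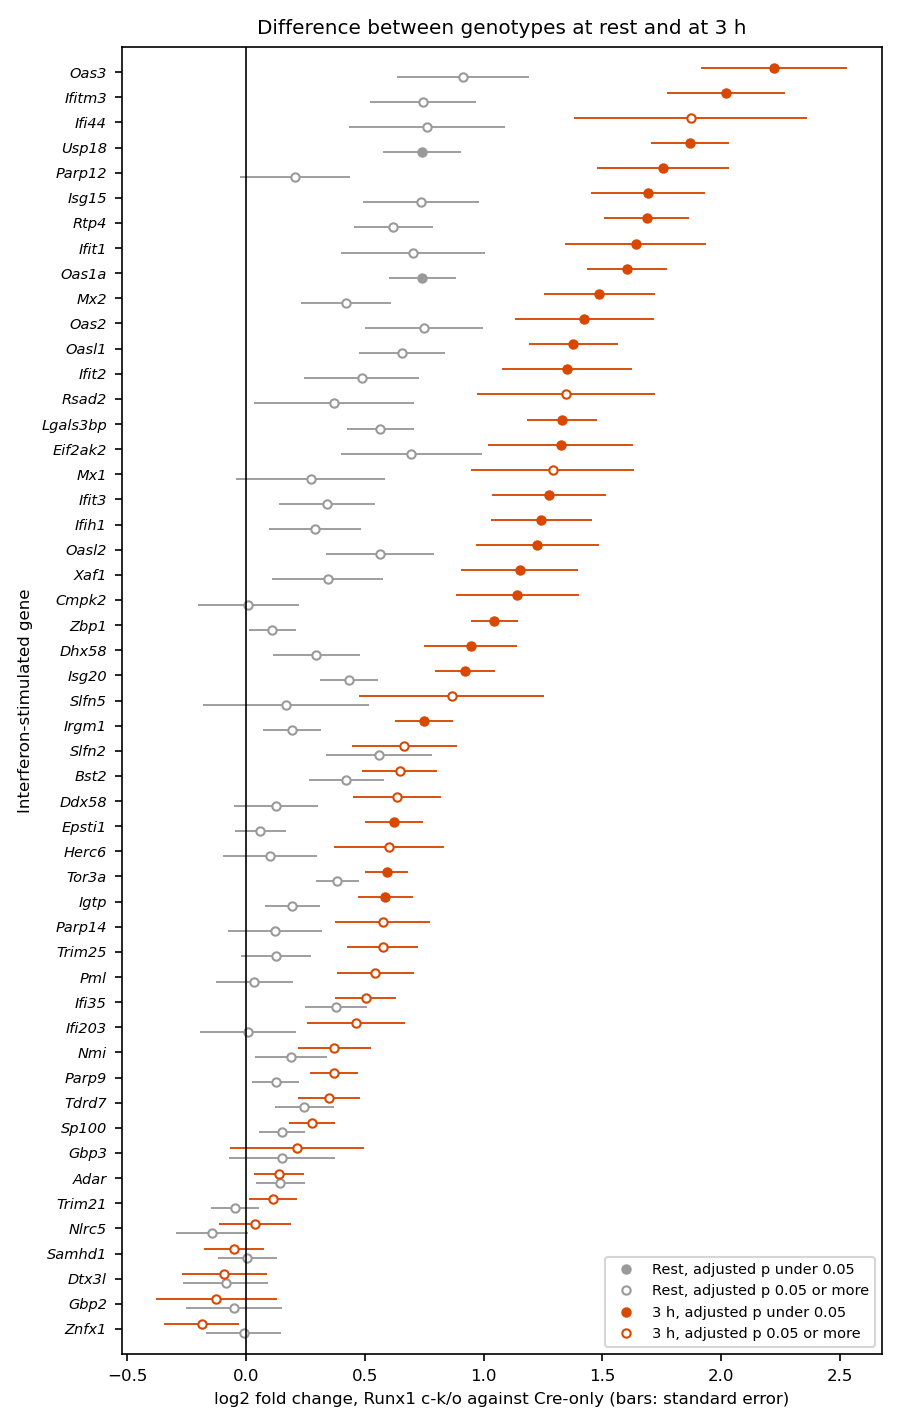
Log2 fold change of each ISG (rows) for Runx1 c-k/o over Cre-only cells at rest (gray) and at 3 h (orange), with bars of 1 standard error and filled points for an edgeR adjusted p under 0.05. At 3 h 47 of 51 points lie above 0, from Oas3 at 2.22 downward, and 26 are filled, against 2 filled points at rest.

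The OAS family comprises synthetases of the 2'-5' oligoadenylates that activate RNase L and the related OAS-like proteins. Oas1a (ENSMUSG00000052776, chromosome 5 from 121346265 to 121357536) was at 13.2, 11.5 and 14.2 CPM in replicates 1, 2 and 3 of resting Cre-only cells and at 22.96, 23.3 and 18.7 CPM in resting Runx1 c-k/o cells. Its 3-h values were 3.06, 2.22 and 2.67 CPM in Cre-only and 7.66, 9.52 and 7.36 CPM in Runx1 c-k/o cells. All Runx1 c-k/o samples lay above all Cre-only samples at both times, and within each genotype the 3-h samples lay below the resting ones. The log2 fold change between genotypes was 0.74 (SE 0.142, adjusted p in edgeR = 0.0227) at rest and 1.60 (SE 0.169, adjusted p in edgeR = 0.00029) at 3 h. At rest it passed the test in 8 of 14 alternatives, and in 1 of the 6 that left out a sample.

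Oas3 (ENSMUSG00000032661, chromosome 5 from 121203107 to 121227670) had the largest difference between genotypes at 3 h of the 51 members. It was at 12.5, 13.3 and 13.2 CPM in resting Cre-only and 28.1, 20.4 and 25.02 CPM in resting Runx1 c-k/o cells. Activated Cre-only cells held 3.37, 2.55 and 5.99 CPM and activated Runx1 c-k/o cells 11.01, 20.9 and 23.3 CPM, of which replicate 1 was the lowest. The genotypes did not overlap at either time, and the log2 fold change at 3 h was 2.22 (SE 0.308, adjusted p in edgeR = 0.00184). At rest it was 0.91 (SE 0.276, adjusted p in edgeR = 0.182).

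Oasl1 (ENSMUSG00000041827, chromosome 5 from 115373249 to 115387924), which is known to restrain translation of Irf7 mRNA, was at 32.7, 32.5 and 34.1 CPM in resting Cre-only and 60.3, 50.2 and 45.9 CPM in resting Runx1 c-k/o cells. By 3 h the level was 20.1, 15.3 and 26.2 CPM in Cre-only and 43.4, 53.5 and 63.2 CPM in Runx1 c-k/o cells. It had fallen in Cre-only cells, while the 3-h and resting Runx1 c-k/o samples overlapped. Its log2 fold change between genotypes at 3 h was 1.38 (SE 0.186, adjusted p in edgeR = 0.00159). Its exons overlap Gm13822 on the opposite strand. Oas2 and Oasl2 were higher at 3 h as well, with log2 fold changes of 1.42 (edgeR adjusted p = 0.0220) and 1.23 (edgeR adjusted p = 0.0249). Reads that these related genes share could be split between them.

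In the ISG15 and IFIT group, Usp18 had the smallest adjusted p of all members at 3 h. USP18 removes the ubiquitin-like protein ISG15 from its targets and blocks signaling at IFNAR2. Usp18 (ENSMUSG00000030107, chromosome 6 from 121195924 to 121220934) was at 7.76, 7.80 and 6.57 CPM in resting Cre-only and 12.3, 12.6 and 12.1 CPM in resting Runx1 c-k/o cells. The 3-h samples gave 6.04, 4.05 and 6.88 CPM for Cre-only and 18.9, 20.3 and 23.1 CPM for Runx1 c-k/o cells. Here the 3-h Runx1 c-k/o samples were the highest of all 12. The log2 fold change was 0.74 (SE 0.162, adjusted p in edgeR = 0.0461) at rest and 1.87 (SE 0.164, adjusted p in edgeR = 0.000107) at 3 h. At rest the call was lost whichever of the 6 samples was left out, and at 3 h it held in all 14 alternatives.

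Isg15 (ENSMUSG00000035692, chromosome 4 from 155573533 to 155574927), the gene of the modifier itself, whose promoter is shown above, was at 4.96, 4.73 and 5.64 CPM in resting Cre-only and 6.91, 12.3 and 6.37 CPM in resting Runx1 c-k/o cells, where replicate 2 was the highest. At 3 h it was at 4.79, 3.46 and 5.61 CPM in Cre-only and 14.3, 16.9 and 13.7 CPM in Runx1 c-k/o cells. The genotypes were apart at both times, Runx1 c-k/o being the higher. The log2 fold change was 0.74 (SE 0.244, adjusted p in edgeR = 0.233) at rest and 1.69 (SE 0.241, adjusted p in edgeR = 0.00230) at 3 h. Isg20 (ENSMUSG00000039236, chromosome 7 from 86058310 to 86065248), which encodes an RNA exonuclease, was at 14.7, 13.04 and 12.6 CPM in resting Cre-only and 15.7, 20.3 and 18.6 CPM in resting Runx1 c-k/o cells. Its 3-h values were 7.68, 6.60 and 6.94 CPM in Cre-only and 13.4, 12.4 and 14.6 CPM in Runx1 c-k/o cells. They did not overlap, and the log2 fold change was 0.92 (SE 0.128, adjusted p in edgeR = 0.00180).

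The neighboring genes Ifit1, Ifit2 and Ifit3 were all higher at 3 h. Ifit3 was at 2.55, 1.89 and 4.14 CPM in 3-h Cre-only and 5.41, 7.74 and 7.54 CPM in 3-h Runx1 c-k/o cells, groups that did not overlap. Its log2 fold change was 1.28 (SE 0.241, adjusted p in edgeR = 0.0143), and those of Ifit1 and Ifit2 were 1.64 (edgeR adjusted p = 0.0105) and 1.35 (edgeR adjusted p = 0.0207). The other 5 members of this group did not pass the test at 3 h. Ifi44, the member with the lowest level, had a log2 fold change of 1.87 (SE 0.490, adjusted p in edgeR = 0.0712), with 0.216, 0.196 and 0.255 CPM in 3-h Cre-only cells, near the level of 3 counts. The ISG15 ligase Herc6 had a log2 fold change of 0.60, Ifi35 of 0.50, its partner Nmi of 0.37 and Ifi203 of 0.46, with edgeR adjusted p between 0.0633 and 0.294. Ifi203 was at 435, 442 and 468 CPM in resting Cre-only and 496, 368 and 488 CPM in resting Runx1 c-k/o cells, which overlapped. Activated Cre-only cells held 78.2, 60.2 and 83.5 CPM and activated Runx1 c-k/o cells 67.01, 116 and 122 CPM, with replicate 1 of the latter inside the Cre-only range.

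**Figure D3:**
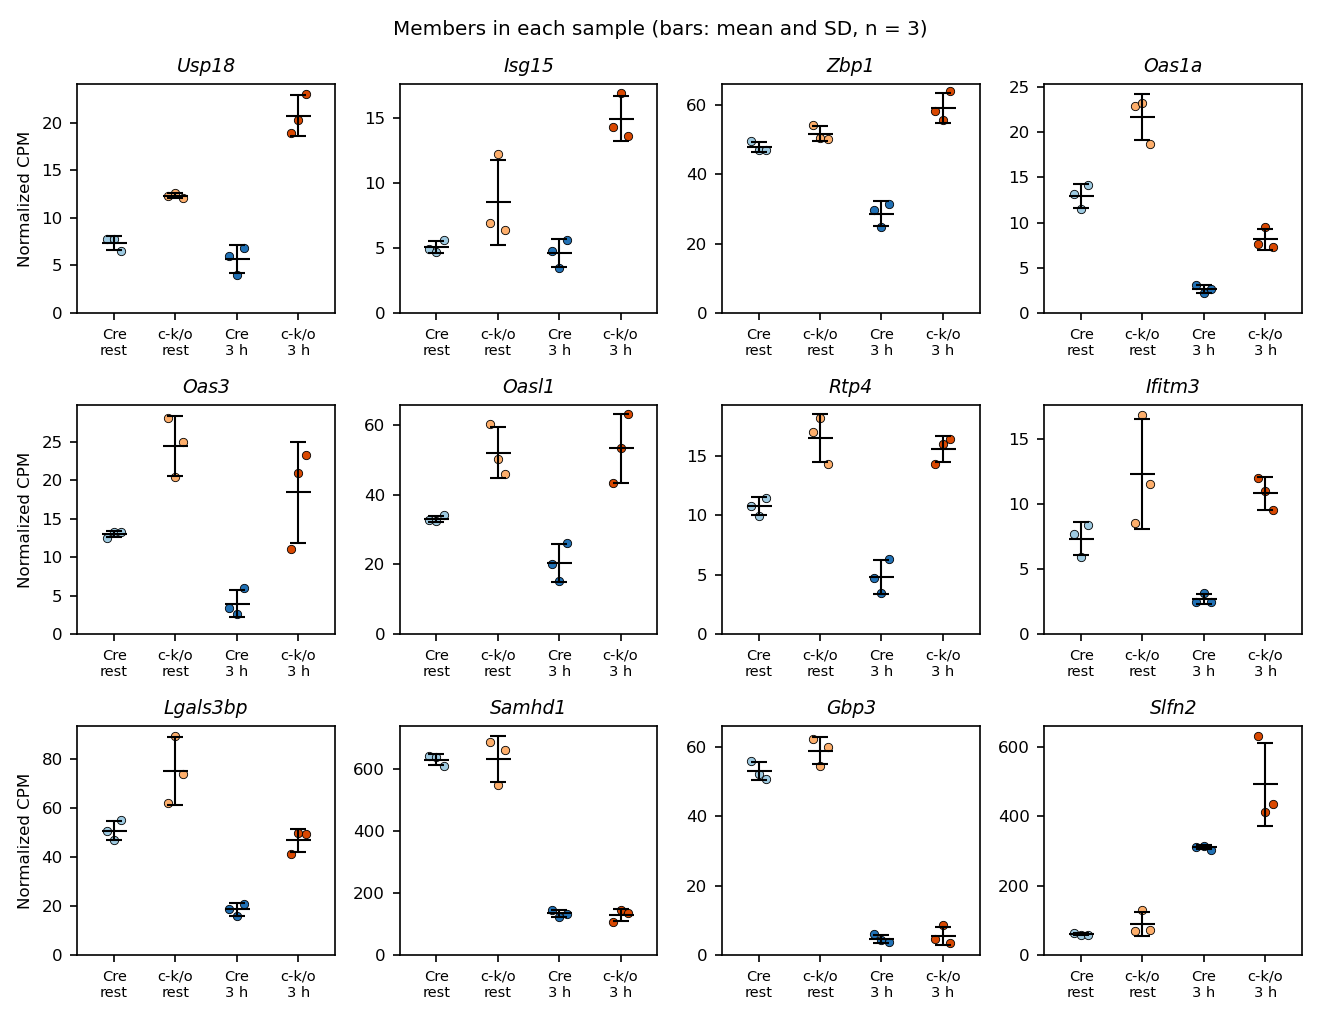
Normalized CPM (vertical axes, from 0) of 12 ISGs in each sample of the 4 groups, with bars for the mean and SD of 3 samples. In Usp18, Isg15 and Zbp1 the 3-h Runx1 c-k/o samples are the highest group, in the OAS genes, Rtp4, Ifitm3 and Lgals3bp the 3-h Cre-only samples are the lowest, and in Samhd1 and Gbp3 the genotypes overlap at both times.

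The sensors detect foreign or misplaced nucleic acids. Zbp1 (ENSMUSG00000027514, chromosome 2 from 173032113 to 173044424), which senses left-handed nucleic acids, was at 49.6, 47.1 and 46.9 CPM in resting Cre-only and 54.3, 50.6 and 50.3 CPM in resting Runx1 c-k/o cells. By 3 h the level was 29.7, 24.8 and 31.5 CPM in Cre-only and 58.1, 55.6 and 63.96 CPM in Runx1 c-k/o cells. The 3-h Cre-only samples were the lowest of the 12 and the 3-h Runx1 c-k/o samples the highest. The log2 fold change between genotypes at 3 h was 1.04 (SE 0.0992, adjusted p in edgeR = 0.000157) and held in all 14 alternatives. Ifih1, which encodes the double-stranded RNA sensor MDA5, and Dhx58, which encodes its regulator LGP2, were also higher, with log2 fold changes of 1.24 (edgeR adjusted p = 0.00747) and 0.95 (edgeR adjusted p = 0.0228).

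Ddx58, which encodes the sensor RIG-I and had the highest level per kilobase of the sensors at rest, was at 159, 149.6 and 157 CPM in resting Cre-only and 182, 145 and 182 CPM in resting Runx1 c-k/o cells. The 3-h samples gave 37.5, 29.7 and 37.3 CPM for Cre-only and 36.6, 64.4 and 61.2 CPM for Runx1 c-k/o cells. Replicate 1 of the latter lay inside the Cre-only range, and the log2 fold change of 0.64 (SE 0.183, adjusted p in edgeR = 0.0995) did not pass the test. Znfx1, a helicase-like sensor with exons that overlap a gene on the other strand, did not pass in any comparison.

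Of the restriction factors, Ifitm3 (ENSMUSG00000025492, chromosome 7 from 148195485 to 148196669), which hinders viral entry at membranes, differed most. It was at 7.66, 5.92 and 8.37 CPM in resting Cre-only and 8.49, 16.8 and 11.6 CPM in resting Runx1 c-k/o cells, with replicate 2 the highest. At 3 h it was at 2.46, 3.14 and 2.42 CPM in Cre-only and 11.97, 10.96 and 9.48 CPM in Runx1 c-k/o cells. The groups did not overlap at either time, and the log2 fold change at 3 h was 2.02 (SE 0.249, adjusted p in edgeR = 0.000849). At rest it was 0.74 (SE 0.225, adjusted p in edgeR = 0.180).

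Rtp4 (ENSMUSG00000033355, chromosome 16 from 23610005 to 23614308), a receptor transporter protein gene with antiviral activity, was at 10.8, 9.96 and 11.5 CPM in resting Cre-only and 16.98, 18.2 and 14.3 CPM in resting Runx1 c-k/o cells. Its 3-h values were 4.70, 3.46 and 6.31 CPM in Cre-only and 14.3, 15.9 and 16.4 CPM in Runx1 c-k/o cells. The 3-h Runx1 c-k/o samples were in the range of the resting ones, and the log2 fold change between genotypes at 3 h was 1.69 (SE 0.179, adjusted p in edgeR = 0.000296). Mx2 (ENSMUSG00000023341, chromosome 16 from 97757690 to 97782506), a dynamin-like GTPase gene, was at 14.9, 15.7 and 14.8 CPM in resting Cre-only and 22.7, 19.8 and 18.2 CPM in resting Runx1 c-k/o cells. Activated Cre-only cells held 2.59, 1.63 and 2.74 CPM and activated Runx1 c-k/o cells 4.38, 7.61 and 7.71 CPM. It fell in both genotypes, the 3-h genotypes did not overlap, and the log2 fold change between them was 1.49 (SE 0.233, adjusted p in edgeR = 0.00422).

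The RNA-activated kinase gene Eif2ak2, the nucleotide kinase gene Cmpk2 and Xaf1, a partner of the apoptosis inhibitor XIAP, were also higher at 3 h. Their log2 fold changes were 1.32, 1.14 and 1.15, with edgeR adjusted p of 0.0404, 0.0357 and 0.0264. Mx1 and Rsad2, which encodes viperin, had log2 fold changes of 1.29 and 1.35 but standard errors of 0.344 and 0.373, and did not pass (edgeR adjusted p = 0.0754 and 0.0860). Bst2, which encodes tetherin and had the highest 3-h level per kilobase of the restriction factors in Runx1 c-k/o cells, was at 24.8, 25.4 and 26.3 CPM in resting Cre-only and 32.7, 40.5 and 29.3 CPM in resting Runx1 c-k/o cells. By 3 h the level was 26.5, 27.9 and 30.96 CPM in Cre-only and 55.4, 42.9 and 35.3 CPM in Runx1 c-k/o cells. Its samples did not overlap, with a log2 fold change of 0.65 (SE 0.157, adjusted p in edgeR = 0.0511). The editing enzyme gene Adar, Samhd1 and the Tudor domain gene Tdrd7 did not pass either.

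Of the IFN-inducible GTPases, which act against intracellular pathogens, the 2 immunity-related GTPases were higher in Runx1 c-k/o cells and the guanylate-binding proteins were not called. Irgm1 (ENSMUSG00000046879, chromosome 11 from 48675470 to 48685185) was at 47.7, 53.98 and 47.7 CPM in resting Cre-only and 57.6, 56.8 and 56.4 CPM in resting Runx1 c-k/o cells. The 3-h samples gave 59.8, 45.5 and 63.5 CPM for Cre-only and 90.8, 86.7 and 106 CPM for Runx1 c-k/o cells. The groups did not overlap at either time, and the log2 fold change at 3 h was 0.75 (SE 0.122, adjusted p in edgeR = 0.00541). Igtp was at 23.6, 25.2 and 21.3 CPM in resting Cre-only and 29.2, 27.02 and 24.02 CPM in resting Runx1 c-k/o cells. At 3 h it was at 24.8, 19.1 and 22.6 CPM in Cre-only and 32.7, 31.7 and 35.6 CPM in Runx1 c-k/o cells, with no overlap and a log2 fold change of 0.59 (SE 0.116, adjusted p in edgeR = 0.0176).

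In contrast Gbp3 was at 56.04, 52.3 and 50.9 CPM in resting Cre-only and 62.3, 54.6 and 60.1 CPM in resting Runx1 c-k/o cells. Its 3-h values were 5.999, 4.25 and 3.63 CPM in Cre-only and 4.51, 8.53 and 3.42 CPM in Runx1 c-k/o cells. The genotypes overlapped at both times. Gbp2 was at 28.4, 26.2 and 26.7 CPM in resting Cre-only and 25.7, 28.8 and 24.1 CPM in resting Runx1 c-k/o cells, and at 5.999, 3.07 and 3.57 CPM and 5.34, 3.54 and 3.003 CPM at 3 h. It too overlapped at both times, although both promoters hold the ISRE core. Over the 19 members with a core in the promoter window, 10 were called higher at 3 h and the median log2 fold change between genotypes was 0.865. Of the 21 members without one, 9 were called and the median was 0.622.

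Of the ADP-ribosyltransferases, ubiquitin ligases and nuclear body proteins only Parp12 was called at 3 h. Parp12 (ENSMUSG00000038507, chromosome 6 from 39036409 to 39068348), a gene of low level, was at 2.51, 3.02 and 2.85 CPM in resting Cre-only and 3.05, 3.49 and 3.12 CPM in resting Runx1 c-k/o cells. Activated Cre-only cells held 0.777, 0.457 and 1.02 CPM and activated Runx1 c-k/o cells 1.87, 2.62 and 3.18 CPM. The 3-h genotypes did not overlap, and the log2 fold change was 1.75 (SE 0.277, adjusted p in edgeR = 0.00434), while at rest the genotypes did not differ past the test. Parp14, Trim25, Pml, Parp9 and Sp100 had log2 fold changes at 3 h of 0.58, 0.57, 0.54, 0.37 and 0.28 and did not pass, with edgeR adjusted p between 0.0676 and 0.184. Dtx3l and Trim21, an antibody receptor of the cytosol, did not pass either. Sp100 was at 528, 556 and 538 CPM in resting Cre-only and 635, 541 and 626 CPM in resting Runx1 c-k/o cells. By 3 h the level was 198, 205 and 201 CPM in Cre-only and 217, 263 and 252 CPM in Runx1 c-k/o cells, which did not overlap. The partners Parp9 and Dtx3l share exons on opposite strands, and their reads can be told apart only if the counting used strand, which the sources do not state.

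Of the other members, Lgals3bp, Tor3a and Epsti1 were higher at 3 h. Lgals3bp (ENSMUSG00000033880, chromosome 11 from 118254065 to 118263406), which encodes a secreted galectin-binding glycoprotein, was at 50.5, 46.8 and 54.9 CPM in resting Cre-only and 61.9, 89.4 and 73.8 CPM in resting Runx1 c-k/o cells. The 3-h samples gave 18.8, 15.9 and 20.96 CPM for Cre-only and 41.2, 49.5 and 49.2 CPM for Runx1 c-k/o cells. The groups did not overlap at either time, and the log2 fold change was 1.33 (SE 0.147, adjusted p in edgeR = 0.000414) at 3 h and 0.56 (SE 0.141, adjusted p in edgeR = 0.0899) at rest. Tor3a (ENSMUSG00000060519, chromosome 1 from 158583748 to 158604487), a torsin ATPase gene, was at 46.1, 49.4 and 49.6 CPM in resting Cre-only and 59.9, 67.7 and 61.6 CPM in resting Runx1 c-k/o cells. At 3 h it was at 65.6, 59.8 and 70.6 CPM in Cre-only and 91.6, 106 and 97.6 CPM in Runx1 c-k/o cells. The genotypes did not overlap at either time, and the log2 fold change at 3 h was 0.59 (SE 0.0902, adjusted p in edgeR = 0.00335). Slfn5 had a log2 fold change of 0.86 that did not pass (edgeR adjusted p = 0.299), and Nlrc5, which drives MHC class I genes, did not pass in any comparison.

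On activation of Cre-only cells, 38 of 51 members fell and 4 rose. These changes are in relative level. The counts hold no spike-in entries, so a change in total RNA per cell could not be measured. Of all tested genes 36.4% fell and 38.6% rose (75% changed either way), so a change in itself was common, while the members that changed were mostly lower. The median log2 fold change was -1.45 against 0.03 for all tested genes, and it was above 0 in 9 members and in 50.9% of all tested genes. In Runx1 c-k/o cells, 26 members fell and 10 rose, where 36.6% of all tested genes fell and 37.7% rose (74.3% either way). Their median was -0.54 against 0.00, with 14 members above 0 and 50.1% of all tested genes. Those 26 had all fallen in Cre-only cells too, and the 4 that rose in Cre-only cells also rose in Runx1 c-k/o cells. A further 12 fell in Cre-only cells without a call in Runx1 c-k/o cells. The mean of 3-h cells lay above the mean of resting Cre-only cells in 9 members for Cre-only and in 19 members for Runx1 c-k/o cells. With 1 factor of unwanted variation in the fit, 30 members fell and 6 rose in Cre-only cells and 19 fell and 10 rose in Runx1 c-k/o cells. Of all 13538 tested genes 4113 fell and 4755 rose in Cre-only cells and 4117 fell and 4493 rose in Runx1 c-k/o cells.

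**Figure D4:**
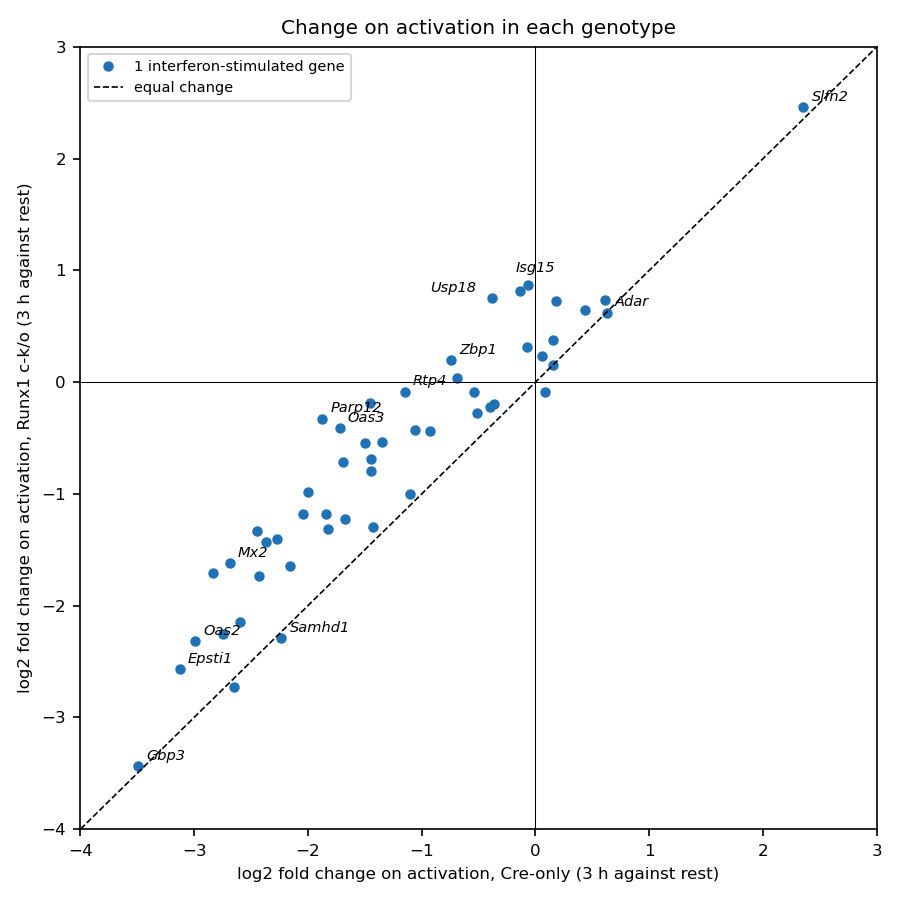
Log2 fold change of each ISG between 3 h and rest in Cre-only (horizontal) and Runx1 c-k/o cells (vertical), with a dashed line of equal change. In 46 of 51 members the point lies above the line, and Gbp3, Samhd1, Adar and Slfn2 lie close to it.

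Epsti1, which encodes an epithelial and stromal interaction protein, had the smallest adjusted p of the members that fell. It was at 65.2, 66.1 and 60.9 CPM in resting Cre-only and 6.69, 7.25 and 8.09 CPM in 3-h Cre-only cells, a log2 fold change of -3.13 (SE 0.121, adjusted p in edgeR = 9.38e-09). Runx1 c-k/o cells held 66.7, 66.8 and 66.8 CPM at rest and 10.7, 13.4 and 9.78 CPM at 3 h, with a log2 fold change of -2.57 (SE 0.117, adjusted p in edgeR = 2.00e-08). It fell in both genotypes, and at 3 h it was higher in Runx1 c-k/o cells (edgeR adjusted p = 0.0175).

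Samhd1, whose product hydrolyzes dNTPs and so limits DNA synthesis from viral and cellular templates, was at 639.6, 637 and 609.7 CPM in resting Cre-only and 145, 123 and 133 CPM in 3-h Cre-only cells. The Runx1 c-k/o values were 686, 547 and 661 CPM at rest and 107, 145 and 134 CPM at 3 h. It fell in both, and the genotypes overlapped at both times. The log2 fold change on activation was -2.23 (SE 0.131, adjusted p in edgeR = 3.36e-08) in Cre-only and -2.29 (SE 0.132, adjusted p in edgeR = 4.26e-08) in Runx1 c-k/o cells.

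Gbp3 fell the most of all members, with log2 fold changes of -3.50 (SE 0.263, adjusted p in edgeR = 1.75e-07) in Cre-only and -3.43 (SE 0.262, adjusted p in edgeR = 2.42e-07) in Runx1 c-k/o cells. Gbp2 fell by like amounts, -2.65 and -2.73 (edgeR adjusted p = 5.25e-07 and 6.08e-07). Sp100 had log2 fold changes of -1.42 (SE 0.0987, adjusted p in edgeR = 9.23e-08) in Cre-only and -1.30 (SE 0.0984, adjusted p in edgeR = 2.15e-07) in Runx1 c-k/o cells, and Oas1a of -2.27 (SE 0.165, adjusted p in edgeR = 1.38e-07) and -1.41 (SE 0.148, adjusted p in edgeR = 3.10e-06). Gbp3, Gbp2, Sp100 and Samhd1 were not called between genotypes at either time, whereas Oas1a fell from a higher to a higher level without Runx1.

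Slfn2, a Schlafen gene known to keep lymphocytes quiescent, rose. It was at 64.9, 58.5 and 58.4 CPM in resting Cre-only and 311, 316 and 304 CPM in 3-h Cre-only cells, a log2 fold change of 2.36 (SE 0.231, adjusted p in edgeR = 1.58e-06). In Runx1 c-k/o cells it was at 67.9, 129 and 71.8 CPM at rest, with replicate 2 the highest, and at 631, 412 and 436 CPM at 3 h, with replicate 1 the highest. The log2 fold change there was 2.46 (SE 0.232, adjusted p in edgeR = 1.21e-06). The genotypes did not overlap at either time, but their difference at 3 h, 0.67 (SE 0.220, adjusted p in edgeR = 0.156), did not pass the test.

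Adar rose from 204, 190.2 and 200.1 CPM to 307, 299.5 and 312 CPM in Cre-only cells, a log2 fold change of 0.63 (SE 0.104, adjusted p in edgeR = 0.000142). Its rise without Runx1 was from 234, 213 and 210.0 CPM to 284, 345 and 381 CPM, a log2 fold change of 0.62 (SE 0.104, adjusted p in edgeR = 0.000158). Ifi35, which forms a complex with NMI, rose from 38.2, 37.2 and 38.4 CPM to 57.3, 55.6 and 60.8 CPM in Cre-only cells, a log2 fold change of 0.61 (SE 0.130, adjusted p in edgeR = 0.000948). Without Runx1 it rose from 47.1, 58.4 and 42.3 CPM to 97.1, 74.1 and 75.2 CPM, a log2 fold change of 0.74 (SE 0.129, adjusted p in edgeR = 0.000223). Its exons overlap Gm11626 on the opposite strand. Tor3a rose by 0.44 and 0.64 on the log2 scale (edgeR adjusted p = 0.000814 and 3.49e-05). The 6 members that rose in Runx1 c-k/o cells without a call in Cre-only cells were Ifit1, Isg15, Usp18, Bst2, Irgm1 and Igtp, with log2 fold changes of 0.87, 0.81, 0.75, 0.38, 0.73 and 0.32.

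Whether the genotype difference changed between rest and 3 h was tested as an interaction. It was called in 1 of 51 members, Zbp1, with a larger difference at 3 h, and 0 members had a smaller one, where 0.0665% and 0.0148% of all tested genes were called in these directions and 0.0813% in either. The interaction of Zbp1 was 0.93 (SE 0.139, adjusted p in edgeR = 0.0282). Over the members the median was 0.56 against -0.04 for all tested genes, and it was above 0 in 46 members and in 42.8% of all tested genes. At an unadjusted p under 0.05, 24 members had a larger and 0 a smaller difference at 3 h in edgeR. Of all 13538 tested genes 350 and 336 did. DESeq2 called 7 and 0 members, against 62 and 21 of 11955 genes. The largest values were those of Parp12 (1.55), Oas3 (1.31), Ifitm3 (1.27), Cmpk2 (1.13) and Usp18 (1.13), none of which passed, with edgeR adjusted p of 0.244, 0.623, 0.346, 0.544 and 0.155. The call of Zbp1 was kept without replicate 2 of resting or replicate 1 of 3-h Runx1 c-k/o cells and was lost without any other single sample. It was also lost with the replicate block within genotype, at 0.94 (edgeR adjusted p = 0.290). That block goes by replicate number, and Runx1 c-k/o samples of the same number did not all deviate together. With both Runx1 c-k/o samples of low correlation left out, 16 members were called, when 126 of 13751 genes were called with a larger difference. So the larger number of calls at 3 h than at rest is not a test of each gene's difference between the times.

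Of 41 other genes of the IFN pathway, 32 were tested. At rest 3 were called, all higher in Runx1 c-k/o cells, and 29 were not. Of all tested genes 0.731% were higher and 0.761% lower at rest. At 3 h 5 were higher and 1 lower, where 1.47% of all tested genes were higher and 1.3% lower. The list was written from general knowledge with earlier results of these data known.

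Of the ligands, the type I IFN genes Ifnb1, Ifna1, Ifna2, Ifna4, Ifna5, Ifna9 and Ifne had 0 or 1 counts in every sample and Ifnk had 0 to 5, so differences in them were not detectable at this depth. Ifng, the type II IFN gene, had 1 to 20 counts per sample and did not differ between genotypes past the test. Of the receptors, Ifnar1 was at 162, 159 and 153 CPM in resting Cre-only and 449, 362 and 398 CPM in resting Runx1 c-k/o cells. Its 3-h values were 174, 168 and 153 CPM in Cre-only and 282, 308 and 324 CPM in Runx1 c-k/o cells. The groups were far apart at both times, with log2 fold changes of 1.35 (SE 0.0998, adjusted p in edgeR = 3.25e-05) and 0.88 (SE 0.0989, adjusted p in edgeR = 0.000415). Ifnar2 had a log2 fold change of 0.42 at rest that did not pass (edgeR adjusted p = 0.107). Among the kinases, Tyk2 was lower at 3 h, at 55.4, 51.7 and 51.9 CPM in Cre-only and 33.6, 41.7 and 43.3 CPM in Runx1 c-k/o cells, a log2 fold change of -0.42 (SE 0.0978, adjusted p in edgeR = 0.0405).

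Of the transcription factors, Irf7, which amplifies type I IFN production and is itself an ISG, was at 61.97, 52.7 and 64.5 CPM in resting Cre-only and 133, 117 and 113 CPM in resting Runx1 c-k/o cells. Activated Cre-only cells held 13.6, 12.6 and 19.1 CPM and activated Runx1 c-k/o cells 50.6, 55.1 and 50.1 CPM. It lay higher in Runx1 c-k/o cells at both times, with log2 fold changes of 1.02 (SE 0.138, adjusted p in edgeR = 0.00289) and 1.78 (SE 0.146, adjusted p in edgeR = 7.17e-05), and it fell on activation in both genotypes like most members. Irf9, a subunit of ISGF3, was at 82.4, 82.4 and 86.2 CPM in 3-h Cre-only and 107, 114 and 116 CPM in 3-h Runx1 c-k/o cells, a log2 fold change of 0.42 (SE 0.0876, adjusted p in edgeR = 0.0235). Stat2 did not pass at either time.

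Irf5 was at 142, 142 and 143 CPM in 3-h Cre-only and 214, 178 and 184 CPM in 3-h Runx1 c-k/o cells, a log2 fold change of 0.43 (SE 0.0819, adjusted p in edgeR = 0.0145). At rest neither Irf9 nor Irf5 was called. Of 11 tested genes of upstream sensing only Mb21d1, which encodes the DNA sensor cGAS, was called. It was at 1.59, 1.99 and 1.74 CPM in resting Cre-only and 5.09, 5.56 and 4.58 CPM in resting Runx1 c-k/o cells. By 3 h the level was 5.52, 5.68 and 6.88 CPM in Cre-only and 14.1, 14.9 and 17.6 CPM in Runx1 c-k/o cells. It rose on activation in both genotypes and was higher in Runx1 c-k/o cells at both times, with log2 fold changes of 1.52 (SE 0.168, adjusted p in edgeR = 0.000757) and 1.37 (SE 0.141, adjusted p in edgeR = 0.000257). The 4 negative regulators Socs1, Socs3, Ptpn6 and Pias1 were not called between genotypes, with log2 fold changes at 3 h of 0.25, 0.43, -0.28 and -0.25.

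**Figure D5:**
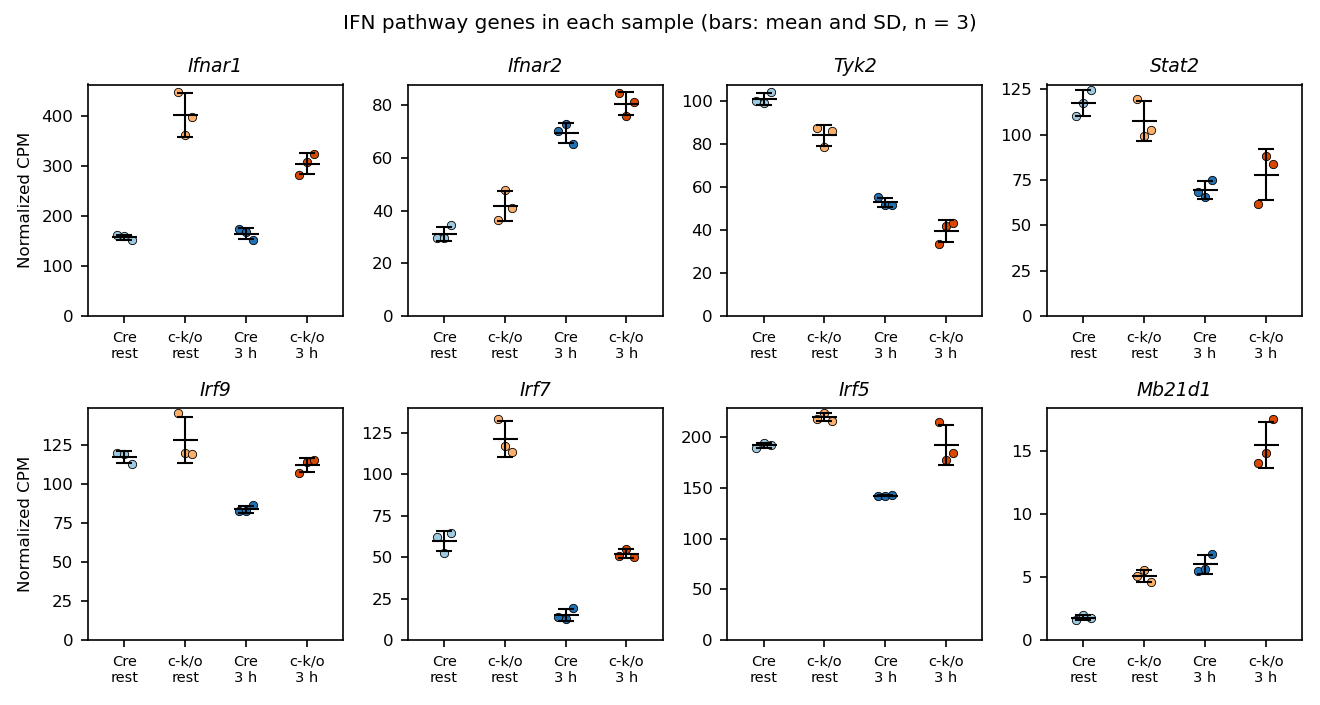
Normalized CPM (vertical axes, from 0) of 8 genes of the IFN pathway in each sample of the 4 groups, with bars for the mean and SD of 3 samples. Ifnar1, Irf7 and Mb21d1 are higher in Runx1 c-k/o cells at both times, Irf9 and Irf5 were called higher and Tyk2 lower at 3 h and not at rest, and Ifnar2 and Stat2 were not called.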

How the data were processed

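The authors isolated RNA from purified B cells with ERCC spike-in RNA added and made stranded poly(A) libraries. Per the submitters' processing notes and the paper's methods, CASAVA 1.8.4, TopHat2 2.0.11 and featureCounts were used with mouse genome mm9 (NCBIM37). The authors deposited raw counts per gene and sample without normalization, with 0 spike-in entries, and the strand setting and the handling of reads with several alignments are not given in the sources used here. Positions and exon lengths were taken from GENCODE annotation of NCBIM37.

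Genes were kept by filterByExpr of edgeR 4.0.16 (R 4.3.3) with its minimum of 10 counts, normalized by TMM, and fitted by the robust quasi-likelihood method over 12 samples and 4 groups. The 5 comparisons were adjusted by Benjamini-Hochberg over all 13538 tested genes, with a threshold of 0.05. Standard errors are the absolute log2 fold change over the square root of F. For 1 gene in 3 against 3 samples, exact permutation could not go below p = 0.1. The members, the lists and the gene roles were chosen with earlier results of these data known, so a list's count and median stand beside those of all tested genes and no list was tested as a set. From the list of other pathway genes 1 gene is not reported here and was left out of its counts. Values by sample are given for up to 14 members with the smallest adjusted p in a genotype comparison, 5 risers and 5 fallers per activation comparison, members past the interaction test and the highest member per kilobase in each role; others were named after their values were seen or by counts.

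On simulated counts of the genotype comparison at rest (13352 genes), edgeR called 65 of 98 genes changed by 1 on the log2 scale, 29 of 99 changed by 0.6 and 8 of 13155 unchanged genes. Each gene was drawn independently, so the simulation held no samples that deviate in many genes together. Its rates do not cover such samples or the 3-h comparison. Alternatives were DESeq2 1.42.0 (size factors or Wald test), library totals, no filter, 1 factor of unwanted variation (RUVs), a replicate block, only the groups compared, and each sample left out. After seeing the data, both Runx1 c-k/o samples of low correlation were left out together. Samples of the same number deviated together between resting and 3-h Cre-only cells (correlations 0.275, 0.176 and 0.144). They did not all do so between resting and 3-h Runx1 c-k/o cells (-0.254, -0.264 and 0.254) or between genotypes. With 3 samples per group, these correlations do not establish whether samples of the same number are paired in either genotype. Among Runx1 c-k/o samples the highest value was 0.477, between replicate 2 at rest and replicate 1 at 3 h, both of low correlation. Replicate 3 at rest with 2 at 3 h gave 0.309 and replicate 1 at rest with 3 at 3 h gave 0.268. The other pairs ran from -0.428 to 0.254. Pairing under other numbers was not tested, and the blocks went by number.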

Additional observations from a re-analysis of the deposited data

Results flagged for a closer look

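The difference between genotypes changed from rest to 3 h in 1 member by a test of the difference itself. For Zbp1 it was larger at 3 h by 0.93 on the log2 scale (standard error 0.139, edgeR adjusted p = 0.0282). Zbp1 was at 47.9 CPM in resting Cre-only, 51.7 CPM in resting Runx1 c-k/o, 28.7 CPM in 3-h Cre-only and 59.2 CPM in 3-h Runx1 c-k/o cells on average. Over 20 alternatives the value ran from 0.84 to 1.01 and passed the test in 9, and its adjusted p ran from 1.02e-08 to 0.290 (edgeR or DESeq2). The highest of these was that with the replicate block within genotype, under which the call was lost. That block goes by replicate number, and Runx1 c-k/o samples of the same number did not all deviate together.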

How the results depend on the processing

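No member was called lower in Runx1 c-k/o cells at rest or at 3 h by edgeR or by any alternative. The number called over all genes moved with the setting too and is given in parentheses. The number of members higher at rest, 2 in the report (99 genes), was 1 with library totals alone (75). It was 7 with DESeq2's Wald test (181), 11 with 1 RUVs factor (255) and 0 with the replicate block (66). It was 6 with only the resting samples (103) and 9 without both samples of low correlation (287). With a sample left out it ran from 0 to 1 (37 to 72). The number higher at 3 h, 26 (199 genes), was 42 with 1 RUVs factor (455) and 11 of 50 members with only the 3-h samples (102). It was 23 with the replicate block (156) and 42 without both samples of low correlation (565). With a sample left out it ran from 15 to 36 (100 to 273). The interaction was called in 1 member, when 9 genes were called with a larger difference at 3 h. It was called in 7 with DESeq2 (62 genes), in 10 with 1 RUVs factor (85) and in 0 with the replicate block within genotype (4). It was called in 1 with the replicate block across genotypes (9) and in 16 without both samples of low correlation (126). With a sample left out it was called in 0 to 4 (4 to 25). The block changed no other count of members by over 1.5 times. Counts on activation stayed within 1.5 times of those reported. With 1 RUVs factor the log2 fold change on activation turned in Cre-only cells for Parp14 (0.24) and Eif2ak2 (0.00), and in Runx1 c-k/o cells for Xaf1 (0.09), Rsad2 (0.18), Parp9 (0.01), Mx1 (0.04), Eif2ak2 (0.61), Ifih1 (0.11), Oas3 (0.52), Parp12 (0.06) and Bst2 (-0.19), and the cause was not tested. Library totals in place of TMM moved the median change on activation of all genes from 0.03 to -0.10 in Cre-only and from 0.00 to -0.11 in Runx1 c-k/o cells, and that of the members from -1.45 to -1.57 and from -0.54 to -0.64. With 1 RUVs factor the members' medians on activation were nearer 0, at -0.94 (Cre-only) and -0.16 (without Runx1). A single left-out sample leaves 2 in its group, whose spread is shared with the other groups. Depth limits the type I IFN genes and Ifi44, at or near 3 counts.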

Other observations

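Several members lie next to each other. Ifit2 and Ifit3, 7.1 kb apart on chromosome 19, had log2 fold changes on activation of Cre-only cells of -2.04 and -2.37. Ifit1, 64.5 kb from Ifit2, was not called (edgeR adjusted p = 0.865), with 2.79, 1.88 and 3.29 CPM at rest and 2.42, 1.76 and 3.44 CPM at 3 h. Oas2 and Oas3, 3.2 kb apart on chromosome 5, had values of -2.99 and -1.72, Oasl1 and Oasl2, 11 kb apart, of -0.69 and -1.84, and Rsad2 and Cmpk2, 12.8 kb apart on chromosome 12, of -1.69 and -2.84. In these 4 pairs both genes fell in Cre-only cells. Parp9 and Dtx3l, which share exons on opposite strands of chromosome 16, had values of -0.52 (edgeR adjusted p = 0.000499) and 0.16 (edgeR adjusted p = 0.436), and Parp14, 55 kb from Dtx3l, was at -0.54 (edgeR adjusted p = 0.0267).

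The receptor genes Ifnar1, Ifnar2 and Ifngr2 lie 1.09, 1.18 and 1.04 Mb from Runx1 on chromosome 16 of mm9. Of these Ifnar1 was called between genotypes, at both times. Mx1 and Mx2 lie on the same chromosome, 4.84 and 4.93 Mb from Runx1, and had log2 fold changes at 3 h of 1.29 and 1.49. Whether position bears on these values was not tested.

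The pathway genes also changed on activation. In Cre-only cells 13 of 32 rose and 17 fell, where 38.6% of all tested genes rose and 36.4% fell. Socs1, the inhibitor of JAK kinases, rose most, from 1.69, 2.73 and 1.92 CPM to 19.8, 23.4 and 30.6 CPM, and Tlr3, the sensor of double-stranded RNA, fell most, from 4.67, 5.41 and 7.44 CPM to 0.0432, 0.196 and 0.510 CPM, the lowest of these under the level of 3 counts. In Runx1 c-k/o cells 12 rose and 16 fell, where 37.7% of all tested genes rose and 36.6% fell. Both Socs1 and Tlr3 were chosen here after their values were seen.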
